A study of Mus musculus with 28 samples.

Results

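Interleukin-4 (IL-4) and lipopolysaccharide (LPS) were combined in primary mouse macrophages, and the question was how the transcriptional response to LPS differs when the cells have first been exposed to IL-4. The comparison drew on 22 of the 28 arrays of the series, in 4 groups. Bone marrow-derived macrophages of C57BL6/J mice aged 8 to 12 weeks, 2 males and 1 female, were grown from pooled marrow in human recombinant CSF1 at 200 ng/ml, which all 4 groups received. The IL-4 plus LPS group (4 arrays) received IL-4 at 10 ng/ml for 18 h from day 7, with LPS at 10 ng/ml in the last 4 h. The IL-4 group (4 arrays) received the same IL-4 without LPS. The LPS group (7 arrays) received LPS at 10 ng/ml for 4 h without IL-4, and the untreated group (7 arrays) received neither. The design text speaks of at least 3 independent experiments per condition. Nothing says that arrays of a group came from separate animals, since marrow was pooled, so p-values measure the spread between these arrays.

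IL-4 acts through its receptor and the transcription factor STAT6, and in macrophages it raises the genes of alternative activation, such as Arg1, Retnla and Mrc1. LPS, a component of the outer membrane of Gram-negative bacteria, is recognised by TLR4 with CD14 and LY96 (MD-2). It activates NF-kappaB, AP-1 and IRF3, and the interferon-beta that follows drives a further set of genes through its receptor. The interaction of both stimuli was measured as a difference of differences: the LPS change in IL-4-primed cells (IL-4 plus LPS minus IL-4) minus the LPS change in unprimed cells (LPS minus untreated). A positive interaction means that the LPS change was more positive in primed cells, a negative one that it was more negative. All values are log2 signals relative to the 75th percentile of the gene probes of the same array, so that 0 is that percentile, and the same difference of differences on a linear scale would rank genes otherwise.

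The 75th percentile of the arrays lay between 746.1 and 2112.7 intensity units, and 60.3% to 78.7% of probes were well above background. Pairs of arrays within a group correlated at r = 0.943 to 0.991 across the genes tested, each by its brightest probe. At most 1 spot of an array was saturated. Of 7 macrophage markers, 6 were well above background on all 22 arrays. So were 4 of 5 on the array for B cells, neutrophils and osteoclasts, 4 of 6 for dendritic cells and 3 of 4 for endothelial cells. Detection alone thus does not single out macrophages. In untreated cells the summed scaled signal was 521 to 763 for macrophage markers, 9.51 to 13.8 for endothelial and 0.985 to 1.73 for osteoclast markers. The osteoclast sum was 13.7 to 20.7 with IL-4 plus LPS. The letters that the labels give to the experiments did not track how the arrays deviated from their group means. Deviations of arrays with the same letter correlated with a median of -0.015 over 27 pairs (range -0.546 to 0.746), whereas those of arrays hybridised on the same slides, or on slides scanned on 1 day that together held each group once, correlated with a median of 0.477 over 27 pairs (range 0.298 to 0.834). These slide sets, of which 4 held all 4 groups (16 arrays), were used for the blocked values below.

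Of 21471 genes tested, 389 had an interaction at an adjusted p under 0.05 (limma, Benjamini-Hochberg over all genes tested), which is 1.81% of the genes. It was higher in 223 genes (1.04%) and lower in 166 (0.773%), and reached 2-fold in 198 and 135 of them. Scaling the arrays to the median instead left 173 calls, of which 46.8% were higher, against 57.3% with the 75th percentile; the median interaction of all genes was then -0.15, against 0.03. With slide set as a block, 1172 genes were called, 623 higher (2.9%) and 549 lower (2.56%), and all 389 were among them. In 39 of the 389, some group had no array well above background. With such groups set at the lowest signal well above background of each array, or at the probe's own signal where higher, the interaction kept its sign in all 39 and was under 2-fold in 14. Where this limits the interaction on 1 side only, it is given as a bound on the log2 scale beside the fitted value. With the background corrected by normexp, 46 genes were called. Of 74 called genes considered by name, 46 were also called with median scaling and 24 with normexp, and 0 changed sign in these or any other alternative run. In bulk samples such as these, fewer cells of a type and less RNA per cell cannot be told apart.

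The called genes were sorted by the direction of the LPS change and of the change that IL-4 alone made. In 69 genes (0.321% of those tested) the combination went beyond what either stimulus did, upward in 45 and downward in 24, and these are called synergy. In 319 genes (1.49%) 1 stimulus reduced or reversed the effect of the other on the log2 scale, and these are called antagonism. Against the sum of the separate increments on the linear scale, 242 of the 319 and 66 of the 69 synergy genes kept their direction. Of the antagonism genes, 117 had an LPS rise reduced in IL-4-primed cells and 64 had an LPS fall reduced. These classes include reversals: in primed cells the LPS change was called in the opposite direction in 9 of the 117 and 6 of the 64. A further 114 genes were lowered by IL-4 and differed less under LPS, and 24 were raised by IL-4 with a smaller difference under LPS. Only 1 called gene could not be sorted. Additivity was assigned to 784 genes (3.65%) that both stimuli changed and whose 95% interval for the interaction lay within 1 log2 unit of 0 either way; median scaling left 82 and normexp 133. Without IL-4 plus LPS C the count of synergy genes was 42, and without IL-4 B or G that of additive genes was 497 or 498.

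**Figure D1:**
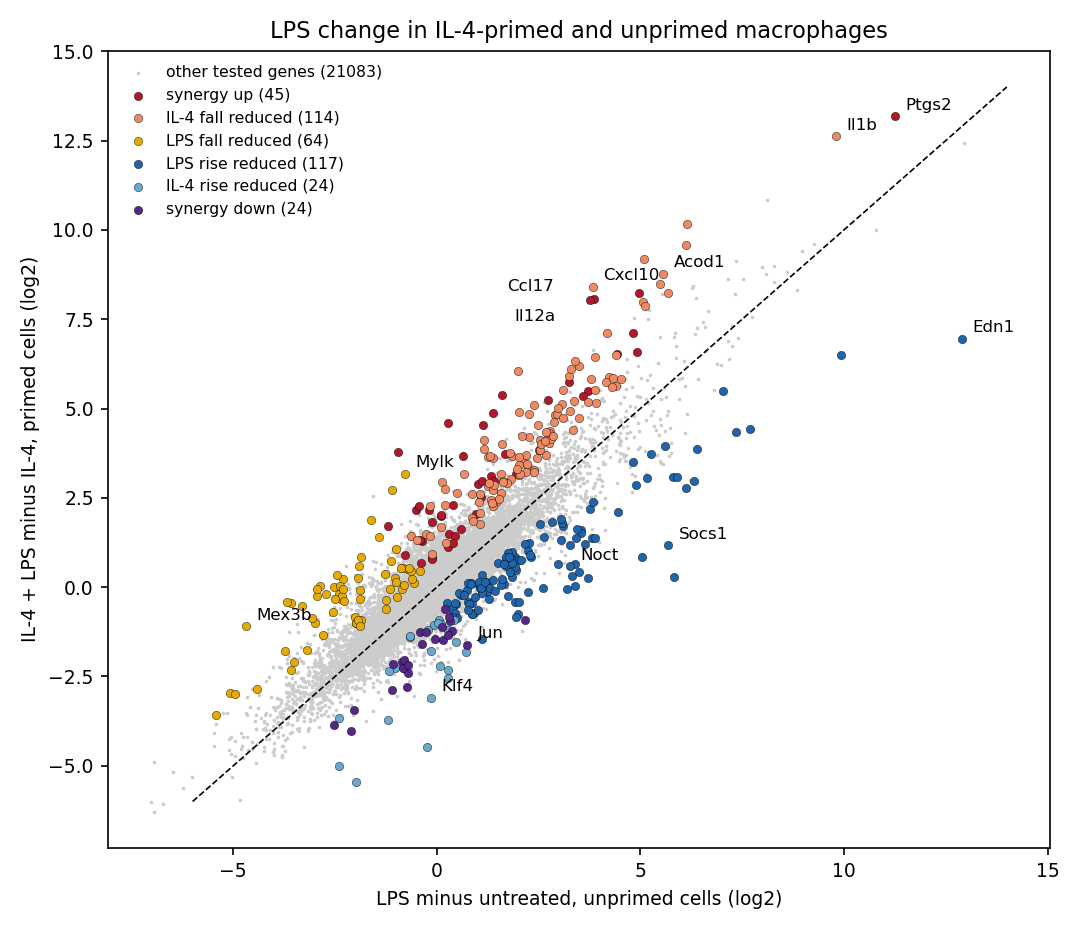
LPS change on the log2 scale in IL-4-primed cells (IL-4 plus LPS minus IL-4, vertical axis) against that in unprimed cells (LPS minus untreated, horizontal axis) for 21471 genes, with the called genes coloured by class and a dashed line where both are equal. Synergy and the genes lowered by IL-4 stand above the line where the interaction is positive, and the 117 genes with a reduced LPS rise stand below it.

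Upward synergy included a cytokine subunit and a chemokine. The 45 genes had a median LPS change of 2.96 in primed and 0.96 in unprimed cells, and a median change with IL-4 alone of -0.15. Of these genes, 37 did not pass the test for IL-4 alone. Il12a encodes the p35 subunit of interleukin-12, and Ccl17 encodes a chemokine that attracts T cells through CCR4. Their promoter windows are shown because these genes were among the largest positive interactions and have a match to the STAT6 type motif. Capitals mark the matches to this motif, an inverted repeat with the spacing at which STAT6 is known to bind. The windows run from 250 bases before to 50 bases after the RefSeq gene start on GRCm38.p6, and both lie on the plus strand, Il12a at chr3:68690394-68690693 and Ccl17 at chr8:94810203-94810502.
Il12a: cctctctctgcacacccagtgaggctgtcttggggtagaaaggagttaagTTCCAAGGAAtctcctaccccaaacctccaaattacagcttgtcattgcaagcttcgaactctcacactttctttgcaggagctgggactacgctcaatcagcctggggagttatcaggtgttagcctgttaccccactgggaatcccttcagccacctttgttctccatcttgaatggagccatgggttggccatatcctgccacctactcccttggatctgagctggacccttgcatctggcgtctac
Ccl17: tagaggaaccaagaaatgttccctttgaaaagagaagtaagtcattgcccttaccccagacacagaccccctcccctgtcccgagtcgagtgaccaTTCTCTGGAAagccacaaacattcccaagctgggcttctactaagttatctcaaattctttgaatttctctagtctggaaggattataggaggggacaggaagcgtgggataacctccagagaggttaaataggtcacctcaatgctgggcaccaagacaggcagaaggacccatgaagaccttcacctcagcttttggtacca
The match begins 200 bases before the start in Il12a and 154 bases before it in Ccl17. This pattern, which reads the same on both strands, occurs in 897 of 13141 tested genes with a window (6.83%) and in 3 of the 31 upward synergy genes with a window (9.68%). These genes had 1.25 and 1.55 windows each on average, and more windows give more room for a match. A match is a description of letters.

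Il12a had levels of 1.43, 1.34, 2.52 and 2.74 on the IL-4 plus LPS arrays of experiments A, B, C and G. The IL-4 arrays gave -7.42, -5.87, -5.32 and -5.51, of which 1 of 4 was well above background. The lowest, median and highest values were -3.44, -1.96 and -0.28 on LPS arrays, and -6.53, -5.8 and -3.91 on untreated arrays. All IL-4 plus LPS arrays stood above every array of the other groups. IL-4 plus LPS exceeded LPS 14-fold, and the interaction was 4.29 ± 0.76 (SE; limma, adjusted p = 0.00359). Ccl17 had levels of 4.12, 4.94, 5.74 and 4.93 with IL-4 plus LPS, and -3.58, -3.22, -1.61 and -4.14 with IL-4. Its lowest, median and highest values were -2.0, -0.32 and 1.08 with LPS, and -4.94, -4.28 and -3.62 in untreated cells. Again no array of another group reached the IL-4 plus LPS arrays, which lay 40.3-fold above LPS on average. The interaction of Ccl17 was 4.20 ± 0.68 (adjusted p = 0.00138), while IL-4 alone changed it by 1.14 ± 0.48 (adjusted p = 0.139). The call of Il12a did not hold with normexp (2.74, adjusted p = 0.159), and that of Ccl17 did (4.27, adjusted p = 0.00633).

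The other subunits of the IL-12 family did not share this pattern in the test. Il12b, the p40 subunit that Il12a needs for interleukin-12, had a fitted interaction of 0.45 (95% interval -0.97 to 1.88), and a bound of at least -1.55 since no IL-4 array was well above background. Its level was lower with IL-4 plus LPS than with LPS by 1.75 ± 0.48 (adjusted p = 0.0226). Ebi3, a subunit of interleukin-27, had an interaction of -0.18 (95% interval -0.67 to 0.3) and was counted as additive. Il27, its partner, gave -0.41 (-1.57 to 0.75). Il23a, which pairs with p40 in interleukin-23, gave 2.06 (0.24 to 3.88) with an adjusted p of 0.445 and a bound of at least 0.07; 2 of 7 LPS arrays and no IL-4 array were well above background. The difference between Il12a and these genes was not tested.

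A pair of B cell genes was also raised. Tnfrsf13c, the BAFF receptor, had 0.29, 0.55, 1.17 and 1.43 with IL-4 plus LPS, which lay 21.0-fold above LPS (interaction 3.78 ± 0.56, adjusted p = 0.000704). Cd79b, a signalling chain of the B cell receptor, had 2.41, 1.43, 2.8 and 2.66 with IL-4 plus LPS, and 0.21, 0.72, 1.18 and 0.32 with IL-4. Its lowest, median and highest values were -0.5, 0.46 and 0.97 with LPS, and 1.06, 1.5 and 1.99 in untreated cells, so that IL-4 plus LPS lay above all IL-4 and LPS arrays and overlapped untreated ones. Its interaction was 2.91 ± 0.41 (adjusted p = 0.000384), with a fall of 1.19 by LPS in unprimed cells and a rise of 1.72 in primed cells. Other B cell genes did not pass the test: Cd79a had an interaction of 0.01 (95% interval -1.5 to 1.51) and Ms4a1 of 0.46 (-1.58 to 2.5). The summed scaled signal of 5 B cell markers, of which Cd79b is 1, was 3.38 to 7.67 with IL-4 plus LPS, 1.36 to 2.78 with IL-4, 1.25 to 2.61 with LPS and 2.26 to 4.4 in untreated cells, and 4 of the 5 were well above background on all arrays. Its part in the result was not tested.

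Among other upward synergy genes, Slc6a13 and Slc6a12 encode transporters of GABA and betaine and lie near each other on chromosome 6; they were chosen after their values were seen. Slc6a13 had -1.47, -0.84, -0.64 and -0.67 with IL-4 plus LPS, and -2.78, -3.68, -3.27 and -3.01 with IL-4. The range was -3.7 to -2.76 (median -3.21) with LPS, and -3.04 to -2.58 (median -2.86) in untreated cells. No array of the other 3 groups came near those of IL-4 plus LPS, and neither IL-4 alone nor LPS alone raised the gene. The interaction was 2.71 ± 0.28 for Slc6a13 (adjusted p = 1.04e-05) and 2.06 ± 0.38 for Slc6a12 (adjusted p = 0.00518). Inhba, the subunit of activin A, was 3.6-fold higher with IL-4 plus LPS than with LPS (interaction 1.65 ± 0.35, adjusted p = 0.0142). Nr1h3, the oxysterol receptor LXR-alpha, was 1.5-fold higher (interaction 1.07 ± 0.23, adjusted p = 0.0148). The water channel Aqp9 was 5.6-fold higher (interaction 3.42 ± 0.52, adjusted p = 0.000907). St8sia6, a sialyltransferase, was 4.3-fold higher (fitted interaction 4.32 ± 0.74, adjusted p = 0.00242; with normexp 1.09, adjusted p = 1), with a bound of at least 3.47 since no IL-4 array was well above background. Of the upward synergy genes named here, only Ccl17 and Cd79b held their calls with normexp, and Slc6a12 and Nr1h3 were not called with median scaling.

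Ptgs2, the inducible cyclooxygenase of prostaglandin synthesis, had 5.88, 6.16, 6.54 and 5.72 with IL-4 plus LPS, and no IL-4 array was well above background. The LPS arrays ranged from 4.66 to 5.14 (median 4.93), and 3 of 7 untreated arrays were well above background. IL-4 plus LPS stood above LPS on every array, by 2.2-fold, and the fitted interaction was 1.92 ± 0.46 (adjusted p = 0.0316), with a bound of at least 0.5. That call was lost when any 1 of 8 arrays was left out, namely IL-4 A, B or G, IL-4 plus LPS A, B or C, LPS D or untreated E, with interactions of 1.76 to 1.98 and adjusted p-values of 0.0515 to 0.091. It was also lost with median scaling and with normexp.

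Downward synergy included Pparg and Jun. The 24 genes had a median LPS change of -1.6 in primed and -0.39 in unprimed cells. In all of them IL-4 plus LPS was lower than LPS, which the class requires. Pparg, the nuclear receptor PPAR-gamma that IL-4 is known to induce in macrophages, had 1.82, 1.34, 1.16 and 1.85 with IL-4 plus LPS, and 4.32, 4.49, 4.47 and 4.09 with IL-4. It ranged from 2.04 to 2.4 (median 2.34) with LPS, and from 2.55 to 3.3 (median 3.02) in untreated cells. The 4 groups did not overlap, with IL-4 highest and IL-4 plus LPS lowest. LPS lowered Pparg by 2.80 in primed and by 0.73 in unprimed cells (interaction -2.08 ± 0.22, adjusted p = 1.58e-05). Jun, a subunit of AP-1, had 1.04, 0.49, 0.98 and -0.18 with IL-4 plus LPS, and 2.51, 1.98, 1.86 and 2.41 with IL-4. Its range was 2.13 to 3.3 (median 3.18) with LPS, and 1.73 to 2.4 (median 2.28) in untreated cells. The IL-4 plus LPS arrays lay below those of the other 3 groups. LPS raised Jun in unprimed cells by 0.75 and lowered it in primed cells by 1.61 (interaction -2.36 ± 0.36, adjusted p = 0.000945).

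Rtl5, a gene derived from a retrotransposon, likewise had an LPS change of -0.91 in primed and 2.18 in unprimed cells (interaction -3.09 ± 0.41, adjusted p = 0.000178). The phosphatase Inpp5f was 2.0-fold lower with IL-4 plus LPS than with LPS (interaction -1.60 ± 0.19, adjusted p = 6e-05). Thbd, the anticoagulant receptor thrombomodulin, was 4.9-fold lower (interaction -1.92 ± 0.40, adjusted p = 0.0127), as were Calhm2 (4.3-fold; interaction -1.78 ± 0.36, adjusted p = 0.0106) and Pdlim2 (3.1-fold; interaction -1.42 ± 0.30, adjusted p = 0.0135). With normexp the calls of Pparg, Jun, Rtl5 and Inpp5f held, and those of Thbd, Calhm2 and Pdlim2 did not. Calhm2 and Pdlim2 were not called with median scaling either.

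Antagonism was found in genes that both stimuli raised, with Edn1 and Socs1 among the most negative interactions. Among the 117 genes with a reduced LPS rise, the median LPS change was 0.44 in primed and 1.93 in unprimed cells. In 17 of the 117, the mean with IL-4 plus LPS was above those of the other groups. In 10, it exceeded the sum of the separate increments on the linear scale. IL-4 alone raised 72 of the 117; of these, IL-4 plus LPS did not pass the test against LPS in 52, was higher in 12 and was lower in 8. Edn1 encodes endothelin-1, a vasoconstrictor peptide. It had 6.6, 6.42, 7.03 and 6.47 with IL-4 plus LPS, -0.46, -0.26, -0.46 and -0.12 with IL-4, and a range of 5.31 to 6.31 (median 6.08) with LPS. The untreated arrays ranged from -7.67 to -5.22 (median -7.21), and 2 of 7 were well above background. LPS therefore added 6.96 in primed and 12.91 in unprimed cells, starting from a level that IL-4 had raised by 6.66, and the interaction was -5.95 ± 0.46 (adjusted p = 3.16e-07). With normexp the interaction was -2.16 (adjusted p = 0.355).

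Socs1, an inhibitor of JAK kinases and of cytokine receptor signalling, was close to its LPS level after IL-4 alone. It had 6.93, 6.49, 6.8 and 7.06 with IL-4 plus LPS, 5.61, 5.19, 5.87 and 5.88 with IL-4, 5.24 to 6.79 (median 6.33) with LPS, and 0.02 to 0.96 (median 0.59) in untreated cells. Every stimulated array stood above every untreated one. LPS raised Socs1 by 1.19 in primed and by 5.69 in unprimed cells (interaction -4.50 ± 0.34, adjusted p = 3.16e-07; with normexp -4.28, adjusted p = 0.000213). Il4i1, a secreted amino acid oxidase, was 4.6-fold higher with IL-4 plus LPS than with LPS, but its LPS rise was 4.42 in primed and 7.70 in unprimed cells (interaction -3.28 ± 0.49, adjusted p = 0.000791; with normexp -2.53, adjusted p = 0.0647). Ocstamp, which is needed for fusion into multinucleated cells, was 13.4-fold higher with IL-4 plus LPS than with LPS, with an interaction of -3.45 ± 0.57 (adjusted p = 0.00191). Fcgr2b, the inhibitory IgG receptor, reached means of 6.98 ± 0.36 with IL-4 plus LPS and 7.12 ± 0.26 with LPS (SD, n = 4 and 7; interaction -2.05 ± 0.32, adjusted p = 0.0012). Adora2b, an adenosine receptor, had an LPS change of -0.05 in primed and 3.20 in unprimed cells (interaction -3.25 ± 0.67, adjusted p = 0.0117). Rasgrp1 (-3.35 ± 0.48) and Tarm1 (-3.34 ± 0.51) were called in the same direction. Of these, Fcgr2b and Adora2b kept their calls with normexp.

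In the other 45 genes with a reduced LPS rise, IL-4 alone did not pass the test, and IL-4 plus LPS was lower than LPS in all 45, which follows in part from how the class is defined. Noct, a phosphatase of circadian and metabolic regulation, was chosen after its values were seen. It had 1.53, 0.65, 0.82 and 0.47 with IL-4 plus LPS, and 0.31, 0.44, 0.36 and 0.02 with IL-4. The range was 3.51 to 4.14 (median 3.88) with LPS, and 0.3 to 0.79 (median 0.6) in untreated cells. The LPS group alone stood apart from the other 3. LPS raised Noct by 0.58 in primed and by 3.28 in unprimed cells (interaction -2.69 ± 0.25, adjusted p = 4.54e-06; with normexp -2.53, adjusted p = 0.000561). Plat, the tissue plasminogen activator, had -0.84, -1.78, -1.1 and 0.34 with IL-4 plus LPS, against 0.07 to 1.87 (median 1.11) with LPS, so that the groups overlapped on 1 array (interaction -2.35 ± 0.49, adjusted p = 0.0135). Mmp13, a collagenase, was 2.0-fold lower with IL-4 plus LPS than with LPS (interaction -1.66 ± 0.35, adjusted p = 0.0139). Shisal2b was well above background on LPS arrays only, at -3.78 to -1.58, so its interaction has no bound in either direction (adjusted p = 6.04e-05). Plat, Mmp13 and Shisal2b were not called with normexp, nor Plat with median scaling.

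The second large class held interferon-stimulated and inflammatory genes. IL-4 alone lowered all 114 of these genes, with a median change of -2.01, and the LPS change was more positive in primed cells. Both directions are required by the class. The median LPS change was 3.94 in primed and 2.25 in unprimed cells. In 89 of the 114, IL-4 plus LPS did not pass the test against LPS; in 25 it was lower. On the linear scale, IL-4 plus LPS exceeded the sum of the separate increments in 49 of them. Promoter windows of 3 of these genes are shown because they carry the motif of the interferon or NF-kappaB pathway. Capitals mark the core of the interferon-stimulated response element, on either strand in Cxcl10 (minus strand gene, chr5:92348840-92349139) and in Ifit1 (plus strand, chr19:34640639-34640938). In Cxcl2 (plus strand, chr5:90903649-90903948) they mark a kappaB type motif. All are RefSeq windows on GRCm38.p6, written in the direction of the gene.
Cxcl10: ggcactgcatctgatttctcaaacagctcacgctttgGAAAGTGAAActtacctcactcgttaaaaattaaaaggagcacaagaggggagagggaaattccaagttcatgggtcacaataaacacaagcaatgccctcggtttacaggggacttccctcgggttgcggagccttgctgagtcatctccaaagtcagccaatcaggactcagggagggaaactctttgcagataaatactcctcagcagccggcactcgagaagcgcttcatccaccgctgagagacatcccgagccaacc
Ifit1: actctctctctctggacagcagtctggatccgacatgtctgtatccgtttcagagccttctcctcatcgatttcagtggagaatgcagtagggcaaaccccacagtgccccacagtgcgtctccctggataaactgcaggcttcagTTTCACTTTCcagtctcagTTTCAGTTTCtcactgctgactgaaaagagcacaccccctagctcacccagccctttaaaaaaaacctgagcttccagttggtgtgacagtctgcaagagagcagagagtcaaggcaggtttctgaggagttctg
Cxcl2: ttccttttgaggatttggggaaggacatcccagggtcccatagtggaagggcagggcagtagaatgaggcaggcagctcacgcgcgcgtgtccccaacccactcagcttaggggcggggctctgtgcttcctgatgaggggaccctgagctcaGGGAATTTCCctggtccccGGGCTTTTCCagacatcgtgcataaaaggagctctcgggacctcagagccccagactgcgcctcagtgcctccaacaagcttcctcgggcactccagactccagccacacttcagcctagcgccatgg
The matches begin 213 bases before the start in Cxcl10, 104 and 85 bases before it in Ifit1, and 97 and 78 bases before it in Cxcl2. The interferon pattern was found in 18 of the 70 genes of this class with a window (25.7%) and in 502 of 13141 tested genes with a window (3.82%), at 1.17 and 1.25 windows per gene. The kappaB type pattern was found in 3 of the 70 (4.29%) and in 250 of the 13141 (1.9%). Among the 31 upward synergy genes these shares were 2 (6.45%) and 4 (12.9%), at 1.55 windows per gene.

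Cxcl10, a chemokine that attracts activated T cells, had 8.38, 7.73, 8.15 and 8.55 with IL-4 plus LPS, and 0.28, -0.05, -1.46 and 0.4 with IL-4. It ranged from 8.17 to 8.57 (median 8.44) with LPS, and from 4.21 to 4.88 (median 4.65) in untreated cells. The IL-4 arrays stood far below the untreated ones, while both LPS groups overlapped. LPS raised Cxcl10 by 8.41 in primed and by 3.83 in unprimed cells (interaction 4.58 ± 0.36, adjusted p = 3.24e-07; with normexp 4.29, adjusted p = 5.21e-05). IL-4 plus LPS minus LPS was -0.22 ± 0.26. Acod1, which makes itaconate, had 8.56, 8.62, 8.64 and 8.98 with IL-4 plus LPS, and 0.18, -0.42, -0.33 and 0.29 with IL-4. Its range was 8.53 to 8.98 (median 8.64) with LPS, and 2.48 to 3.71 (median 3.12) in untreated cells. The interaction was 3.22 ± 0.29 (adjusted p = 2.23e-06), with IL-4 plus LPS minus LPS at 0.0 ± 0.20.

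Of 37 tested genes of the type I interferon and antiviral list, 20 were called higher and 0 lower, beside 1.04% and 0.773% of all genes tested. Their median interaction was 1.08, beside 0.03 over all genes tested. Rsad2, the antiviral protein viperin, had 8.35, 7.96, 8.07 and 8.21 with IL-4 plus LPS, and 2.47, 2.44, 1.01 and 1.4 with IL-4. The LPS arrays ranged from 8.13 to 8.56 (median 8.35) and the untreated ones from 4.39 to 5.33 (median 5.1). The interaction was 2.92 ± 0.33 (adjusted p = 2.69e-05). The IFIT proteins bind viral RNA, and Ifit3 (2.88 ± 0.31), Ifit1 (2.71 ± 0.37) and Ifit2 (2.67 ± 0.34) were called alike. Of these, Ifit3 remained lower with IL-4 plus LPS than with LPS, by 1.9-fold (adjusted p = 0.0118). Cmpk2, a nucleotide kinase of the same response, had an interaction of 2.09 ± 0.40 (adjusted p = 0.00609). Rsad2 and the 3 Ifit genes were also called with normexp, and Cmpk2 was not. Of 14 tested interferon-inducible GTPases, which act on vacuoles of intracellular pathogens, 3 were called higher and 0 lower. With slide set as a block 11 were called higher, beside 2.9% of all genes tested. Tgtp1 (1.68 ± 0.27) and Igtp (1.02 ± 0.21) were called in the fit without the block. Cmpk2, Tgtp1 and Igtp were not called with median scaling, and Tgtp1 and Igtp not with normexp. Ifnb1, interferon-beta itself, had a fitted interaction of 2.69 ± 0.76 that was not called (adjusted p = 0.0829; 0.0468 with slide set as a block) and a bound of at least 1.75, as no IL-4 array was well above background. Irf7, which sustains the response, gave 0.98 ± 0.31 (adjusted p = 0.164; 0.018 blocked).

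Of 25 tested chemokines, 8 were called higher and 0 lower, beside 1.04% and 0.773% of all genes tested, with a median interaction of 1.1. The neutrophil chemoattractant Cxcl2 had 3.28, 2.21, 3.37 and 4.79 with IL-4 plus LPS, and -5.92, -5.72, -6.52 and -4.95 with IL-4, where 1 of 4 arrays was well above background. It ranged from 2.31 to 4.47 (median 3.07) with LPS, and from -3.05 to -0.88 (median -1.64) in untreated cells. The interaction was 4.11 ± 0.68 (adjusted p = 0.00173; with normexp 1.41, adjusted p = 1). Cxcl1 was called with a fitted 4.01 ± 0.76 (adjusted p = 0.00609; with normexp 0.38, adjusted p = 1), and its bound was at least 2.13, as no IL-4 array was well above background. Cxcl16 (2.40 ± 0.34), Ccl3 (1.64 ± 0.33) and Ccl4 (1.65 ± 0.32) were called too, but Ccl3 and Ccl4 neither with median scaling nor with normexp. Cxcl9 (0.69, 95% interval -0.85 to 2.23) and Cxcl11 (1.1, 0.13 to 2.08), ligands of CXCR3 like Cxcl10, were not called, although IL-4 lowered both; no IL-4 array was well above background for Cxcl11, whose bound was at least -0.78. Their levels were lower with IL-4 plus LPS than with LPS, by 4.1-fold in Cxcl9 and 8.2-fold in Cxcl11 (adjusted p = 0.0146 and 2.73e-06).

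Among 28 tested inflammatory cytokines, 4 were called higher and 1 lower, beside 1.04% and 0.773% of all genes tested. Tnf had 6.75, 6.14, 6.83 and 7.46 with IL-4 plus LPS, and -0.93, -1.52, -2.41 and -0.87 with IL-4. Its range was 6.32 to 7.16 (median 6.84) with LPS, and -0.42 to 2.08 (median 1.35) in untreated cells. IL-4 arrays lay below untreated ones without overlap, whereas the LPS groups overlapped (interaction 2.54 ± 0.56, adjusted p = 0.0171; with normexp 2.03, adjusted p = 0.313). Il1b had an interaction of 2.82 ± 0.67 (adjusted p = 0.0298), which was not called when IL-4 A or G or IL-4 plus LPS A or C was left out (2.43 to 2.78, adjusted p = 0.0639 to 0.0854). Recognition genes followed. Cd14, the co-receptor of TLR4, was lowered 8.3-fold by IL-4 and remained 2.3-fold lower with IL-4 plus LPS than with LPS (interaction 1.83 ± 0.23, adjusted p = 0.000129). Tlr2 was lowered 7.4-fold by IL-4 (interaction 2.13 ± 0.33, adjusted p = 0.00105), and Tlr4 gave 0.24 (95% interval -0.42 to 0.91). Clec4e, the receptor Mincle, had 2.94 ± 0.38 (adjusted p = 0.000154). Nfkbiz, an NF-kappaB cofactor (2.75 ± 0.48), Relb (1.39 ± 0.27), Nfkbie (1.34 ± 0.22) and Traf1 (1.23 ± 0.24) were called in the same direction, and Fpr2 (3.47 ± 0.50) and Mmp14 (3.00 ± 0.47) as well. Of the called genes of this paragraph, Cd14, Tlr2 and Clec4e kept their calls with normexp, and Clec4e, Fpr2 and Mmp14 with median scaling.

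A reduced LPS fall was found in 64 genes, with a median LPS change of -0.2 in primed and -1.99 in unprimed cells. IL-4 alone lowered 42 of them, raised 4 and did not pass the test in 18. Mylk, myosin light chain kinase, had -2.09, -1.61, -0.46 and -2.02 with IL-4 plus LPS, and -5.14, -4.68, -4.14 and -4.91 with IL-4. Its range was -3.36 to -2.24 (median -2.97) with LPS, and -2.73 to -1.0 (median -2.08) in untreated cells. LPS raised Mylk by 3.17 in primed cells and lowered it by 0.78 in unprimed cells (interaction 3.95 ± 0.47, adjusted p = 6.03e-05), and with slide set as a block it was sorted as upward synergy. Mex3b, an RNA-binding ubiquitin ligase, had -2.23, -3.34, -4.01 and -3.02 with IL-4 plus LPS, -2.02, -1.81, -2.44 and -1.94 with IL-4, -5.35 to -3.97 (median -4.59) with LPS and -0.71 to 0.66 (median 0.18) in untreated cells. Either stimulus lowered it, and LPS took it down by 1.1 from the IL-4 level and by 4.70 from the untreated level (interaction 3.60 ± 0.47, adjusted p = 0.000154). Egln3, an oxygen-sensing prolyl hydroxylase, had 2.72 ± 0.51 (adjusted p = 0.00545). Traf3, an adaptor that restrains NF-kappaB signalling, had an LPS change of 0.36 in primed and -1.27 in unprimed cells (interaction 1.62 ± 0.32, adjusted p = 0.00801). Traf3 kept its call with normexp, and Mylk, Mex3b and Egln3 did not; Traf3 and Egln3 were not called with median scaling.

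The mirror image, an IL-4 rise that was smaller under LPS, was found in 24 genes. IL-4 raised them by a median of 1.69, and LPS changed them by a median of -2.01 in primed and -0.14 in unprimed cells. In 19 of the 24, IL-4 plus LPS did not pass the test against LPS, and in 5 it was higher. Klf4, a transcription factor that takes part in alternative activation, had 3.54, 2.09, 2.66 and 3.12 with IL-4 plus LPS, and 5.87, 6.0, 5.72 and 6.21 with IL-4. It ranged from 2.04 to 3.32 (median 3.04) with LPS, and from 2.54 to 3.54 (median 3.17) in untreated cells. The IL-4 arrays stood above those of the other 3 groups, which overlapped each other (interaction -2.95 ± 0.37, adjusted p = 0.000129; with normexp -2.84, adjusted p = 0.00659). Egr2, another transcription factor of the IL-4 response, had 2.72, 4.42, 4.17 and 3.01 with IL-4 plus LPS, and 6.26, 5.84, 5.8 and 5.68 with IL-4. Its range was 0.77 to 1.54 (median 1.22) with LPS, and 0.02 to 1.85 (median 1.02) in untreated cells. No IL-4 plus LPS array reached the IL-4 arrays or fell to the other 2 groups, and IL-4 plus LPS exceeded LPS 5.3-fold (interaction -2.58 ± 0.47, adjusted p = 0.00394). Aqp3, an aquaglyceroporin, was still 37.9-fold higher with IL-4 plus LPS than with LPS (interaction -2.82 ± 0.58, adjusted p = 0.0106). Nek6 (-2.54 ± 0.50), sorted as a reduced LPS rise with slide set as a block, and Ier5l (-2.60 ± 0.38) were also called. Egr2 and Nek6 kept their calls with normexp, and Aqp3 and Ier5l did not.

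**Figure D2:**
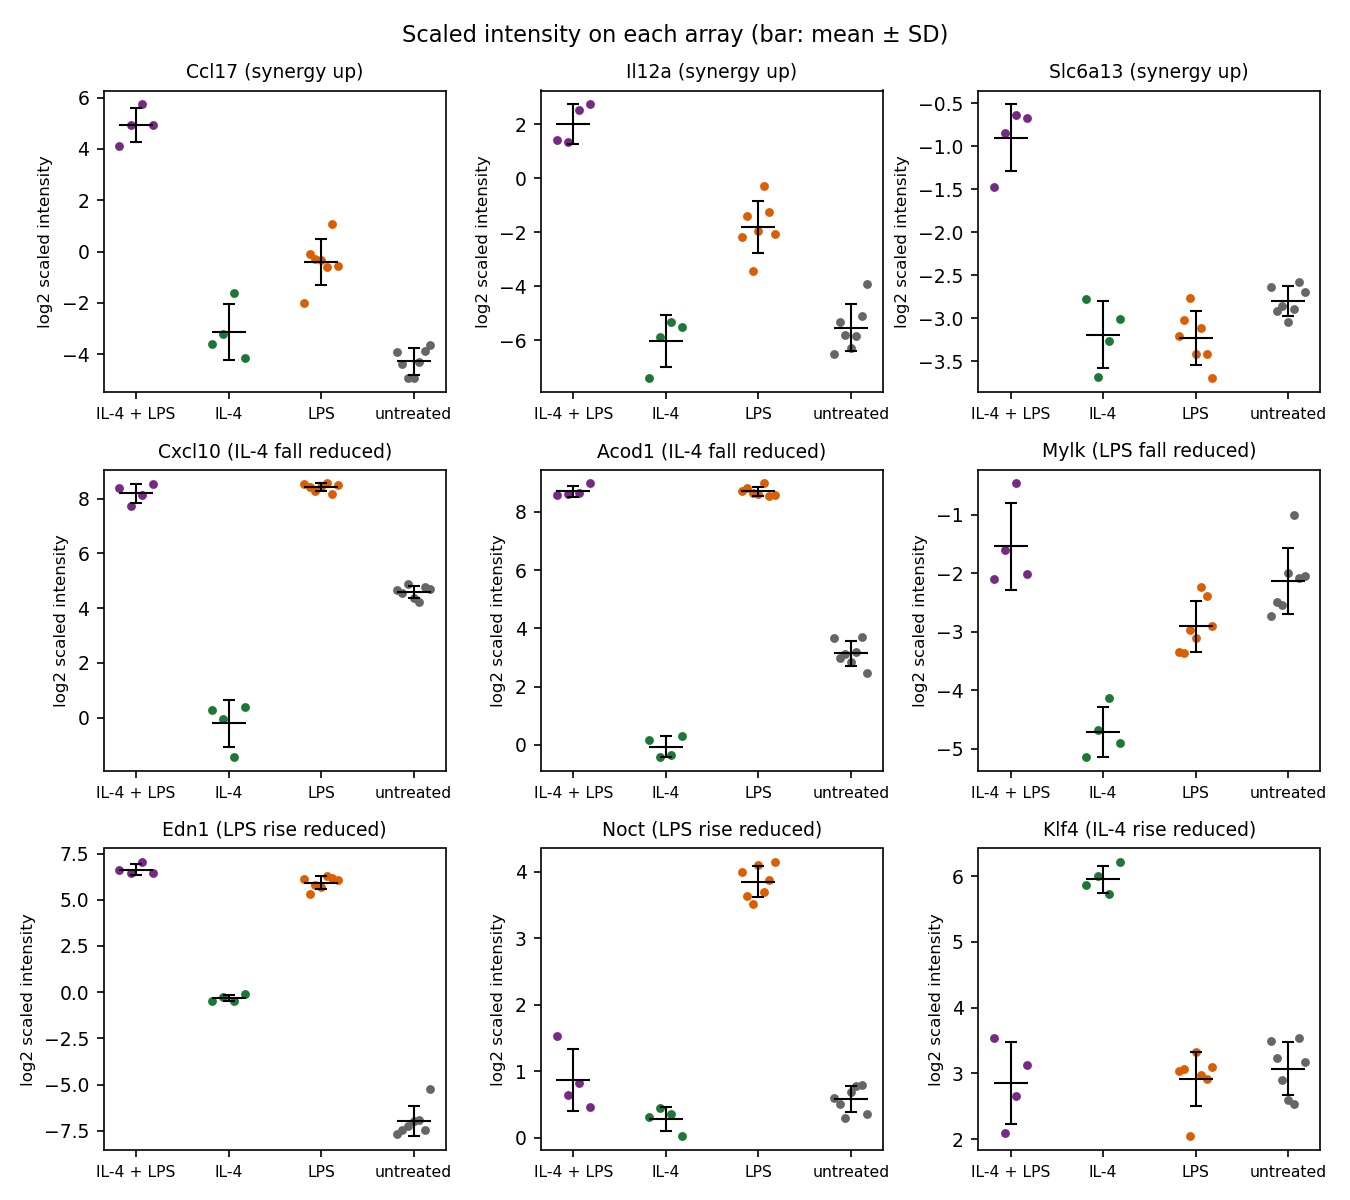
Level of 9 genes on every array (log2 signal relative to the 75th percentile of the array), with mean and SD, in the order IL-4 plus LPS, IL-4, LPS and untreated (4, 4, 7 and 7 arrays). Ccl17, Il12a and Slc6a13 are highest with IL-4 plus LPS, Cxcl10 and Acod1 are lowest with IL-4 and alike with LPS in both states, and Klf4 is high only with IL-4.

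Several well-known IL-4 genes kept a large IL-4 difference under LPS. Retnla was raised by IL-4 by at least 20946.3-fold, and its LPS change in primed cells was 0.12; no LPS or untreated array was well above background. Arg1, arginase-1, had a fitted interaction of -0.03 (95% interval -1.72 to 1.66; bound at least -1.01), Mrc1, the mannose receptor, of 0.02 (-0.74 to 0.78), and Mgl2, a C-type lectin, of 0.15 (-0.73 to 1.03). With LPS present, IL-4 still raised Mgl2 by 6.86 and Mrc1 by 1.75 on the log2 scale, Retnla at least 15627.9-fold and Arg1 at least 902-fold, as no LPS array was well above background in either. Of 37 tested STAT6 targets and alternative activation genes, 1 was called higher and 5 lower (median -0.26), beside 1.04% and 0.773% of all genes tested. Il10 (-0.42, 95% interval -1.09 to 0.25), Nos2 (0.25, -1.37 to 1.87), Il6 (-0.5, -2.05 to 1.05) and Socs3 (0.22, -0.56 to 1.0), all raised strongly by LPS, were not called. The bound was at least -1.3 for Nos2, with no IL-4 array well above background, and at most 0.99 for Il6, with no such untreated array. Il10 was nevertheless 2.7-fold lower with IL-4 plus LPS than with LPS (adjusted p = 0.000195).

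Additivity on the log2 scale was found in 784 genes (82 with median scaling), of which both stimuli moved 438 the same way (327 up, 111 down) and 346 in opposite directions. Cd40, a costimulatory receptor, rose by 5.82 with LPS in primed and by 5.94 in unprimed cells, on top of an IL-4 rise of 0.62, and its interaction was -0.13 (95% interval -0.66 to 0.4). Batf, an AP-1 family factor, rose by 4.58 in primed and 4.93 in unprimed cells (interaction -0.35, -0.78 to 0.08). Cfb, complement factor B, was lowered by IL-4 by 1.39 and raised by LPS by 4.82 in primed and 4.79 in unprimed cells (interaction 0.02, -0.9 to 0.94). Myd88, the adaptor of TLR signalling, rose by 2.63 and 2.39 (interaction 0.23, -0.19 to 0.66) from a level that IL-4 had lowered by 0.57. The transcriptional repressor Bcl6 and the intracellular sensor Nod1 were also additive, with interactions of -0.38 (-0.8 to 0.04) and 0.23 (-0.32 to 0.78). Genes of oxidative phosphorylation held 16 additive members of 30 tested, beside 784 of 21471 over all genes tested (3.65%). Their medians were 0.68 for the IL-4 change and 0.39 for the LPS change in unprimed cells. Of these 30, 0 interactions were called by limma, with 5, all lower, at an unadjusted p under 0.05 (8.46% over all genes tested).

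The lists differed in how often their genes were called. Over all genes tested, 1.04% were called higher and 0.773% lower. With slide set as a block these shares were 2.9% and 2.56%, so counts with the block stand beside more calls in general. Beside the antiviral genes, chemokines, GTPases, cytokines and STAT6 targets above, 5 of 36 genes of TLR4 recognition and signalling were higher and 0 lower (median 0.09). Of 31 negative feedback genes, 2 were higher and 4 lower, and 3 and 9 with slide set as a block. Of 46 transcription factors of activation, 1 was higher and 6 lower. Of 31 proteases, coagulation and matrix genes, 3 were higher and 3 lower. Of 30 pattern recognition and scavenger receptors, 2 were higher and 1 lower, and 7 and 2 with slide set as a block. Of 28 genes of glycolysis and the hypoxia response, 1 was higher and 2 lower, and 1 and 6 with slide set as a block. Of 34 cytokine receptors, 1 was higher and 1 lower, and 4 and 1 with slide set as a block. Antigen presentation and costimulation held 0 called genes by limma. Over all genes tested, 1816 (8.46%) had an unadjusted p under 0.05. Of 21 costimulation genes 7 had an unadjusted p under 0.05, of 12 class II genes 2, of 15 class I genes 2, and of 18 arginine and nitric oxide genes 1. With slide set as a block, 4 costimulation, 3 class II and 2 class I genes were called, and 0 arginine and nitric oxide genes. Cd274, the ligand PD-L1, was among the costimulation genes not called without the block (-0.89 ± 0.42, adjusted p = 0.554; 0.00427 blocked).

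**Figure D3:**
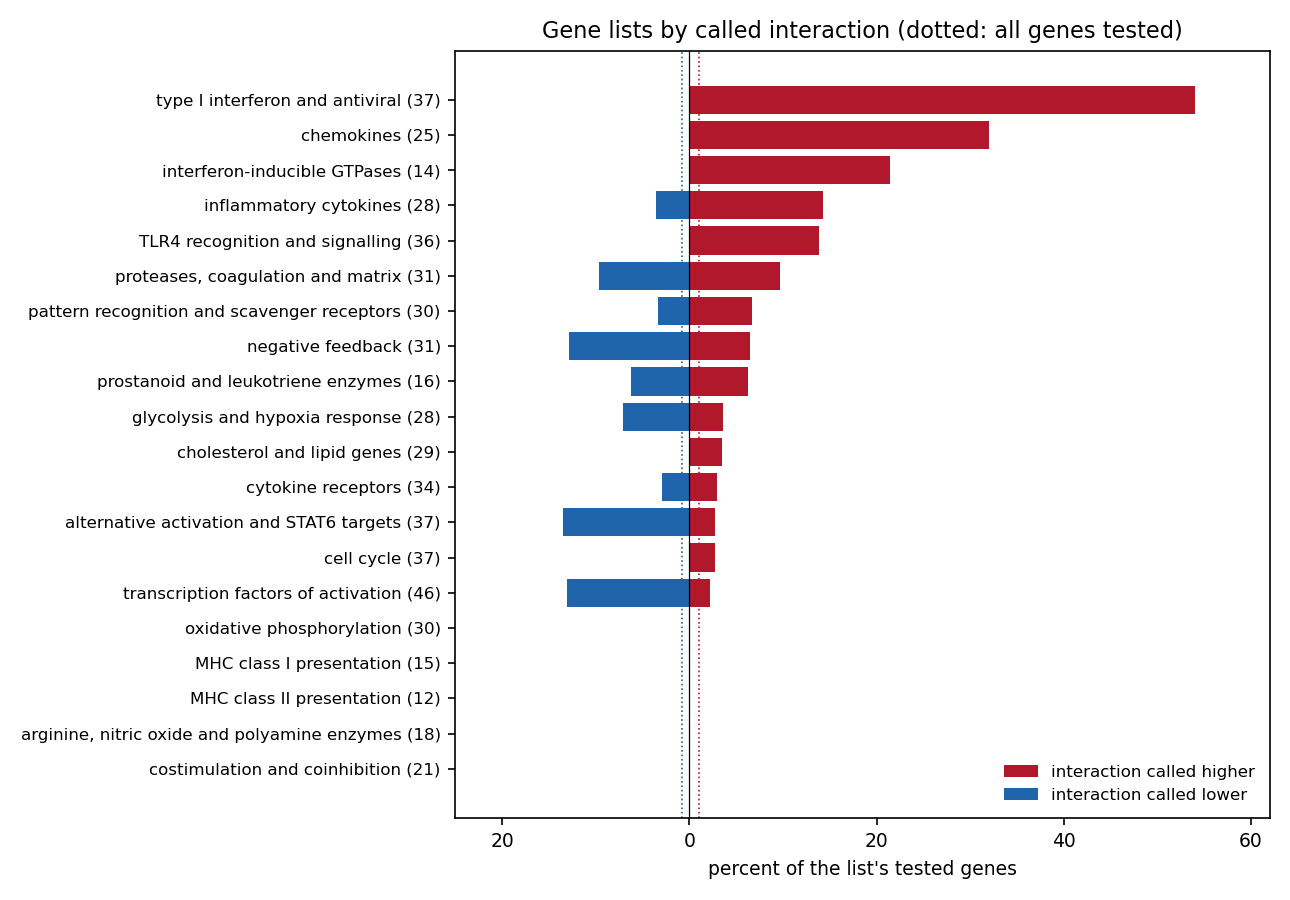
Percent of the tested genes of 20 lists whose interaction was called higher or lower in the fit without a block, with dotted lines at the shares over all 21471 genes tested (1.04% higher, 0.773% lower). The antiviral list has the most genes called, 20 of 37, all higher.

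Genes at least 2-fold higher with LPS were also chosen on arrays that the test did not use, the LPS and untreated arrays of experiments D, E and F. Some of these lay on the same slides as test arrays, such as LPS D and LPS E, so this choice was not separate by slide. Of 6339 genes raised there, 55 were called higher and 32 lower in experiments A, B, C and G (1.37%), beside 85 and 50 of all genes tested (0.396% and 0.233%, together 0.629%). The median LPS change of the 6339 genes on the test arrays was 0.86 in primed and 0.36 in unprimed cells. Most of them thus did not reach the 2-fold cutoff in the unprimed cells of the test. When choice and test were divided by slide set instead, 30 of 3363 raised genes were called higher and 21 lower, beside 47 and 29 of all genes (0.219% and 0.135%), and the median LPS change was 1.44 in primed and 1.43 in unprimed cells. The first count of higher calls ranged from 28 to 56 when 1 array was left out. It was 28 to 35 without any 1 of IL-4 A or G, IL-4 plus LPS A or C, LPS A, B, C or G, or untreated A, B or C.

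Single slide sets gave similar values for the leading genes. The interaction of Cxcl10 was 3.81, 4.54, 5.73 and 4.48 in the 4 sets, that of Acod1 3.46, 3.35, 2.48 and 3.59, and that of Ccl17 4.9, 3.3, 4.33 and 5.3. Il12a gave 5.67, 3.92, 4.2 and 4.52, and Pparg gave -2.36, -1.63, -2.48 and -1.47. Egr2 varied more, at -1.23, -3.65, -1.61 and -2.93, with 1 sign throughout. Blocking by slide set brought in genes that the fit without it did not call, among them Cxcl3 (fitted 2.74 ± 0.82, bound at least 0.77, adjusted p = 0.114; 0.0141 blocked), Irf8 (1.31 ± 0.40; 0.136 and 0.00394), Nfkbia (0.78 ± 0.22; 0.0829 and 0.00358), Socs2 (-2.07 ± 0.59; 0.0935 and 0.000835), Il13ra1 (1.49 ± 0.41; 0.0746 and 0.00615) and Ccl24 (1.74 ± 0.82; 0.573 and 0.00686).

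**Figure D4:**
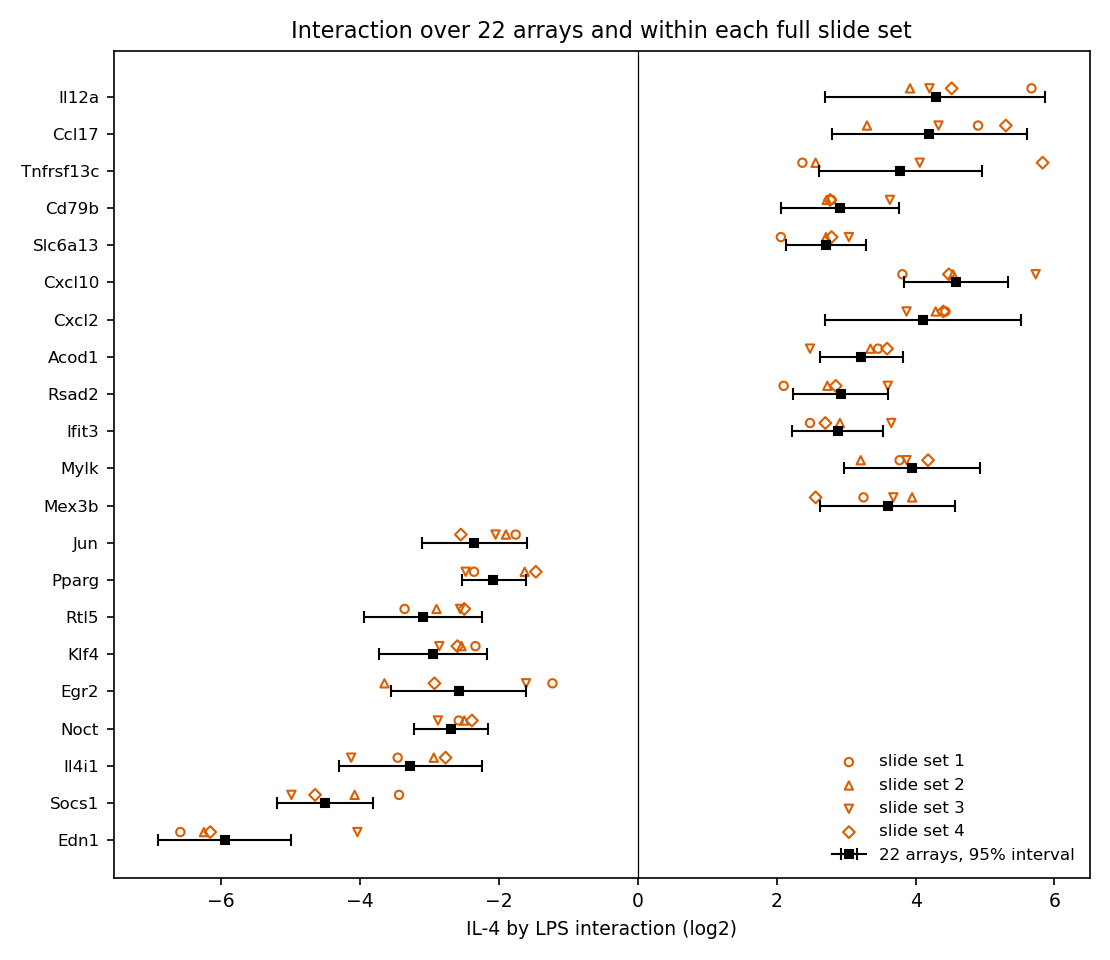
Interaction (log2) of 21 named genes with its 95% interval from all 22 arrays, and the values of the 4 slide sets that hold each group once as separate points. Points of each called gene lie on 1 side of 0, and the sets are part of the 22 arrays that called the genes.

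The 6 arrays of cells primed with interferon-gamma (IFN-gamma, 100 U/ml, 3 arrays with LPS and 3 without) allowed a direct comparison of both primings, in which the LPS change of unprimed cells cancels. The LPS change differed between IL-4 and IFN-gamma priming in 1246 of 21471 genes (5.8%), with 832 higher and 414 lower after IL-4. This comparison uses the same IL-4 arrays that sorted the genes into classes, so the shares by class are a description. It was called in 104 of the 114 genes whose IL-4 fall was reduced under LPS, in 31 of 45 upward and 13 of 24 downward synergy genes and in 19 of 24 with a reduced IL-4 rise. Among genes with a reduced LPS rise or fall it was called in 11 of 117 and 8 of 64. Acod1 had an interaction of 3.22 with IL-4 and of -4.77 with IFN-gamma (difference 7.98, adjusted p = 4.46e-14). Il12a had 4.29 with IL-4 and -1.41 with IFN-gamma (difference 5.70, adjusted p = 7.16e-05). For Edn1 the values were -5.95 with IL-4 and -6.29 with IFN-gamma (difference 0.34, adjusted p = 1), and for Socs1 -4.50 and -5.14 (difference 0.64, adjusted p = 0.517).

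**Figure D5:**
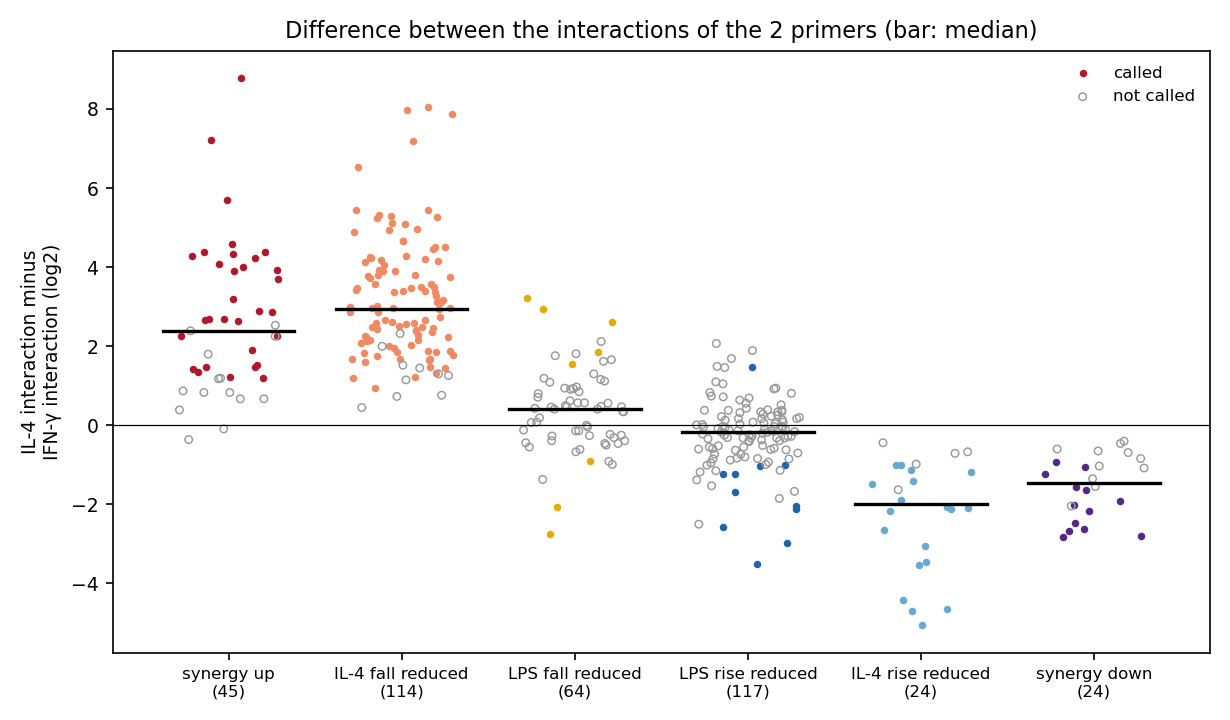
Interaction with IL-4 minus interaction with IFN-gamma (log2) for each called gene, by class, with a bar at the class median and filled points where the difference was called. The difference was called for 104 of 114 genes whose IL-4 fall was reduced, above 0 in all 104, and for 11 of 117 genes whose LPS rise was reduced, above 0 in 1 and below it in 10.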

How the data were processed

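Total RNA was hybridised to 1-colour Agilent arrays, and the deposited scanner files hold 1 intensity per spot. Their software was Agilent Feature Extraction 9.5.1, as listed by the submitters' processing notes. The authors' series value table, whose 28 columns of log2 values are in doubt as to their order, was not used, nor were the deposited background intensity columns except for the normexp alternative (offset 50). Processed signals of gene probes were divided by the 75th percentile of the array and put on the log2 scale, without outlier spots, and spots of a probe were averaged. A gene was represented by its brightest probe, named through accession, symbol or array name (22951, 6659 and 8455 of 41174 probes, and 3109 by synonym), and tested if well above background on at least 4 of 22 arrays. Group means were fitted with limma 3.58.1 in R 4.3.3 (lmFit, eBayes, two-sided, Benjamini-Hochberg over all genes tested), without a block. A gene not well above background on any array of a group has a bound, with that group at the lowest signal well above background, given as "at least" or "at most" beside the fitted value. The experiment letters did not pair the arrays (same-letter deviations correlated from -0.546 to 0.746), so the letter as a replicate block is an alternative, and slide sets were added after the data were seen.

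Genes and lists were chosen with earlier results of these data known. Named genes are the largest positive and negative called interactions, the largest of each class, up to 5 called and 3 uncalled members of each list and a fixed set of cytokines, receptors and regulators; Slc6a12, Slc6a13 and Noct were added after their values were seen. In simulated data built on these arrays, 29 of 50 genes changed 4-fold upward and 9 of 50 changed 2-fold upward were recovered. The simulated noise was independent between arrays, whereas deviations of real arrays in the same slide set correlated with a median of 0.477. Precision is limited by the number of arrays, 4 in each IL-4 group. Promoters come from RefSeq windows of GRCm38.p6. Some genes are not reported here.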

Additional observations from a re-analysis of the deposited data

Results flagged for a closer look

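Single arrays stood apart from the rest of their group in 6 of the 104 combinations of a gene and a group that were examined; chance alone marks about 1 in 20 groups. Edn1 was -5.22 on untreated array G (other untreated arrays -7.67 to -6.93), and Il4i1 was -0.75 on the same array (-2.56 to -1.79). Socs1 was 5.24 on LPS array C (6.22 to 6.79), and Klf4 was 2.04 there (2.92 to 3.32). Mylk was -1.0 on untreated array E (-2.73 to -2.0), and Cd40 was 7.3 on IL-4 plus LPS array C (6.74 to 6.81). None of the called interactions of Edn1, Il4i1, Socs1, Klf4 and Mylk lost its call when 1 array was left out.

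The 13 genes compared between IL-4 and IFN-gamma priming all had a called IL-4 interaction on the same arrays, so their count is a description. Over all genes tested, the difference was called in 1246 of 21471 (5.8%). The interaction differed between IL-4 and IFN-gamma priming in 10 of the 13 (limma over 28 arrays, adjusted over all genes tested). It was higher with IL-4 by 8.78 in Ptgs2, 8.04 in Il1b, 7.98 in Acod1, 7.87 in Cxcl10, 7.22 in Ccl17, 5.70 in Il12a and 5.11 in Ccl5. It was lower with IL-4 by 4.69 in Egr2 (difference -4.69), 3.05 in Klf4 (-3.05) and 2.17 in Pparg (-2.17). No difference was called in Edn1, Socs1 and Jun. For Ptgs2 no IL-4 array was well above background, and its IL-4 interaction had a bound of at least 0.5. With normexp the IL-4 interactions of Ptgs2 (0.67), Il1b (1.12), Il12a (2.74) and Ccl5 (1.33) were not called. Those of Acod1, Cxcl10, Ccl17, Egr2, Klf4 and Pparg were.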

How the results depend on the processing

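Counts of called genes moved with the background correction, the scaling, the arrays used and the block. In the order interaction, synergy, antagonism and additivity, the counts were 389, 69, 319 and 784 as reported. With normexp they were 46, 6, 40 and 133, and 15 of the 389 genes had the opposite sign. With median scaling they were 173, 30, 143 and 82. With the experiment letter as a replicate block they were 243, 42, 199 and 380. With experiments A, B, C and G only they were 135, 28, 107 and 200, and 71, 20, 51 and 117 with the replicate block in addition. With slide as a block they were 1050, 191, 835 and 1251, and with scan day 1022, 168, 836 and 1757. Slide set, added after the data were seen, gave 1172, 196, 955 and 2166 as a block, and its 4 full sets alone, without a block, gave 76, 16, 60 and 178. An additive interval within a factor of 1.5 left 197 genes. Leaving out 1 array gave 264 to 413, 42 to 74, 222 to 341 and 497 to 863. Quantile normalization (443), no filter (300), all 28 arrays (373), a trend and robust prior (407) and the mean of probes (352) changed the interaction count by less than 1.5 times. The comparison with IFN-gamma priming gave 1246 genes as reported, 460 with normexp, 3460 with slide and 3147 with slide set as a block, and 974 to 1354 without 1 array. Genes raised by LPS in other experiments gave 55 higher calls as reported, 30 by slide set and 28 to 56 without 1 array. The cause was not tested.

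Of 74 called genes named, 63 were called with the letter as a replicate block, 45 with experiments A, B, C and G, 35 with the 4 full slide sets, 69 with quantile normalization and 74 with slide, scan day or slide set as a block; 8 (Ptgs2, Atf3, Hk2, Il1b, Ccl5, Gbp6, Tgfbr1 and Irf5) lost the call when some 1 array was left out. Signal over background limits genes whose IL-4 or untreated arrays are near background, where the interaction rests on a bound.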
